A study of Homo sapiens with 6 samples.

Results

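The mitochondrial ribosomal protein genes encode the protein subunits of the ribosome inside mitochondria. Members were the protein-coding genes whose symbol is MRPL or MRPS followed by a number and, where present, a letter A, B or C, together with DAP3 and PTCD3, and pseudogenes were left out. Of the 57820 rows of the count table, 78 belonged to this family, 48 for the large and 30 for the small subunit by symbol, with DAP3 and PTCD3 counted as small. MRPL45 and MRPS21 fit the same naming but had no row with a matching identifier and were not analysed here. RNA came from HEK293, an established human line of embryonic kidney origin, and all libraries were of total RNA from cells that were not heat-shocked. The control group was 3 libraries of cells given the vehicle dimethyl sulfoxide (DMSO) for 12 h, and the minocycline group was 3 libraries of cells given minocycline at 100 µM for 12 h. Polysome fractions named in the study's title were not analysed here. Minocycline is a tetracycline antibiotic, and the question for these genes is how the abundance of their transcripts in total RNA differed between drug and vehicle.

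The mitochondrial ribosome makes the few proteins that mitochondrial DNA encodes, all of them membrane subunits of the respiratory chain and the ATP synthase. Its ribosomal RNAs come from mitochondrial DNA, whereas each of its proteins is encoded in the nucleus, made in the cytosol and imported. Some of these proteins have counterparts in bacterial ribosomes and others are particular to mitochondria. The large subunit forms peptide bonds, and the small subunit holds the messenger RNA and is the subunit that tetracyclines bind in bacteria. Promoters of nuclear genes for mitochondrial proteins are known for binding sites of the factors NRF1, GABPA (an ETS factor) and YY1.

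Promoter sequences of 69 of the 78 genes were found in RefSeq windows on GRCh38.p14, each running from 250 bases before to 50 bases after the gene's start. The ETS letters CCGGAAGT or CCGGAAGC, searched exactly on both strands, were in 25 of these windows (36.2%) and in 10.7% of the 15842 windows of all protein-coding genes. The YY1 letters AAGATGGC were in 20 (29.0%) and in 3.91% of all windows. The core of the NRF1 motif was in 7 (10.1%) and in 8.57% of all windows. At least 1 of the 3 motifs was in 43 windows (62.3%), compared with 20.6% of all windows, and among the 11030 windows of genes that passed the expression filter below the share was 26.6%. In those 11030 windows the ETS letters were in 13.9%, the YY1 letters in 5.01% and the NRF1 core in 11.1%. For NRF1 the members' share was thus no higher than that of expressed genes. The ETS letters were in 16 of 41 large-subunit and 9 of 28 small-subunit windows, and the YY1 letters in 11 and 9. A match is a run of letters, and binding was not measured. The following 130-base stretches end at the gene's start and are shown because they belong to members described below. Capitals mark 2 ETS matches in MRPL27 (chr17:50373185-50373314, minus strand) and 2, on the reverse strand, in MRPS34 (chr16:1773135-1773264, minus strand), an NRF1 match in MRPL14 (chr6:44127309-44127438, minus strand), and an NRF1 match followed by a YY1 match on the reverse strand in MRPL36 (chr5:1799838-1799967, minus strand). In the stretches of MRPL41 (chr9:137551749-137551878, plus strand) and MRPL12 (chr17:81703237-81703366, plus strand) none of these letters occur.
MRPL27: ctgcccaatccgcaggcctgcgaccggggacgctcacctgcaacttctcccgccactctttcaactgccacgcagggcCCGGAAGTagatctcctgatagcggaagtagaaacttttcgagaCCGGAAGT
MRPS34: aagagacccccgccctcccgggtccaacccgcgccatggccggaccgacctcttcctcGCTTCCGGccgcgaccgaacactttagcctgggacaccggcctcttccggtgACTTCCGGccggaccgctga
MRPL14: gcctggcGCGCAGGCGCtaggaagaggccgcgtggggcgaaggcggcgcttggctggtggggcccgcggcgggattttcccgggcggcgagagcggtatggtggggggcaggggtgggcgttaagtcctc
MRPL36: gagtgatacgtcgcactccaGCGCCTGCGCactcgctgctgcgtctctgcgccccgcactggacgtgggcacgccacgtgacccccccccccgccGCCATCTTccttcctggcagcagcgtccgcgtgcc
MRPL41: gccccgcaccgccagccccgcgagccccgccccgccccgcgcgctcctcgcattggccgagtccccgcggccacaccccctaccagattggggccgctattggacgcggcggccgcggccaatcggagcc
MRPL12: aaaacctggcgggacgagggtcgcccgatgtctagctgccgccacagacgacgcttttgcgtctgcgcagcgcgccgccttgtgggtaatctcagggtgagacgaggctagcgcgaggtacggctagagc

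In some windows the YY1 letters lay shortly after the gene's start. In 15 of the 69 windows (21.7%) they began after the gene's start, against 2.48% of all protein-coding windows, and in 15 of these 15 members they read on the gene's own strand, as they did in 345 of the 393 such windows overall. These stretches of 22 bases are shown to make that placement visible, with the YY1 letters in capitals.
MRPS7: gccagccAAGATGGCtgccccc
MRPL50: ctcatcgAAGATGGCggcgcga
MRPL42: ttgaaacAAGATGGCgggttcg
MRPS18A: gtttttgAAGATGGCggccctc
MRPS27: acgctccAAGATGGCtgcctcc
MRPS30: gcgggcaAAGATGGCggcggcc
PTCD3: gaaatcaAAGATGGCggttgta
MRPL46: agaacgaAAGATGGCggcgccc
The match began 20 bases after the start in MRPS7, 24 in MRPL50, 9 in MRPL42, 10 in MRPS18A, 17 in MRPS27, 14 in MRPS30, 11 in PTCD3 and 9 in MRPL46, and over the 15 members the first base ranged from 7 in MRPL38 to 36 in MRPL22. On GRCh38.p14 the stretches of the plus strand are those of MRPS7 at chr17:75261891-75261912, MRPL42 at chr12:93467515-93467536, MRPS30 at chr5:44808953-44808974 and PTCD3 at chr2:86106238-86106259. Those of the minus strand are MRPL50 at chr9:101398581-101398602, MRPS18A at chr6:43687768-43687789, MRPS27 at chr5:72320210-72320231 and MRPL46 at chr15:88467366-88467387.

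The libraries held 17303180 to 17835756 counts, and the members together 91317 to 119553. The libraries did not fall apart by treatment. The first principal component, with 52.9% of the variance of log2 expression, ran from control replicate 1 at -34.9, through minocycline replicates 2, 1 and 3 at -32.3, -14.0 and 3.06, to control replicates 2 and 3 at 31.1 and 47.1. Cytosolic ribosomal protein genes took 7.49% of counts in control replicate 1 but 11.2% and 12.4% in the other controls, beside 8.44%, 7.43% and 10.9% with minocycline. Control replicate 1 therefore stands apart from its group. Fits with and without it are given below for the members as a set, for some single genes and for the assembly and translation factors. Other values below include it. Markers listed for the line fit its label only in part. In the control mean VIM was at 692, KRT8 at 880, KRT18 at 126, ENO2 at 78.0 and the neuronal gene NEFM at 79.7 CPM (normalised read counts, scaled to a common library size with TMM factors). PAX2, on the same list, was low at 4.16 CPM. PTPRC, CD3E and ALB, which mark leukocytes, T cells and liver, had at most 4 counts in any library. Of the other markers of foreign cell types, the fibroblast gene COL1A1 was at 77.2 CPM, COL3A1 at 1.99 CPM and the epithelial gene EPCAM at 38.6 CPM in the control mean, and their part in the results was not tested. STC2 and ASNS, known stress-response genes, rose by 1.96 ± 0.14 and 1.59 ± 0.16 on the log2 scale (± SE; edgeR adjusted p = 0.00289 and 0.00762).

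Transcripts of the mitochondrial ribosomal proteins lay lower with minocycline in most fitted values, by a median of 0.24 on the log2 scale, but no single gene passed the test. Of the 75 members that passed the filter on low counts, 47 of the large and 28 of the small subunit, 0 were called by edgeR's quasi-likelihood test at a Benjamini-Hochberg adjusted p under 0.05, where 9 of all 17225 genes were (0.0522%, all higher; 0% lower), and the smallest adjusted p of a member was 0.820. At an unadjusted p under 0.05 the count was 9 members lower (12.0%; 1.97% of all genes) and 0 higher (2.72% of all genes). The 9 were MRPL4, MRPL12, MRPL14, MRPL27, MRPL34, MRPL41, MRPL50, MRPS7 and MRPS12. The fitted log2 fold change was below 0 in 70 of the 75 (93.3%, where 47.9% of all genes were) and the median over the members was -0.24, beside 0.01 over all genes tested. All 3 minocycline libraries lay below all 3 control libraries in 5 members (6.67%; 3.56% of all genes), and the opposite order occurred in 0 (5.74% of all genes). The 5 members with a fitted value above 0 were MRPL1, MRPL53, MRPS9, MRPS25 and PTCD3. In bulk RNA scaled to the library total, fewer cells expressing these genes, less of their RNA per cell and more of other RNA cannot be told apart.

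**Figure D1:**
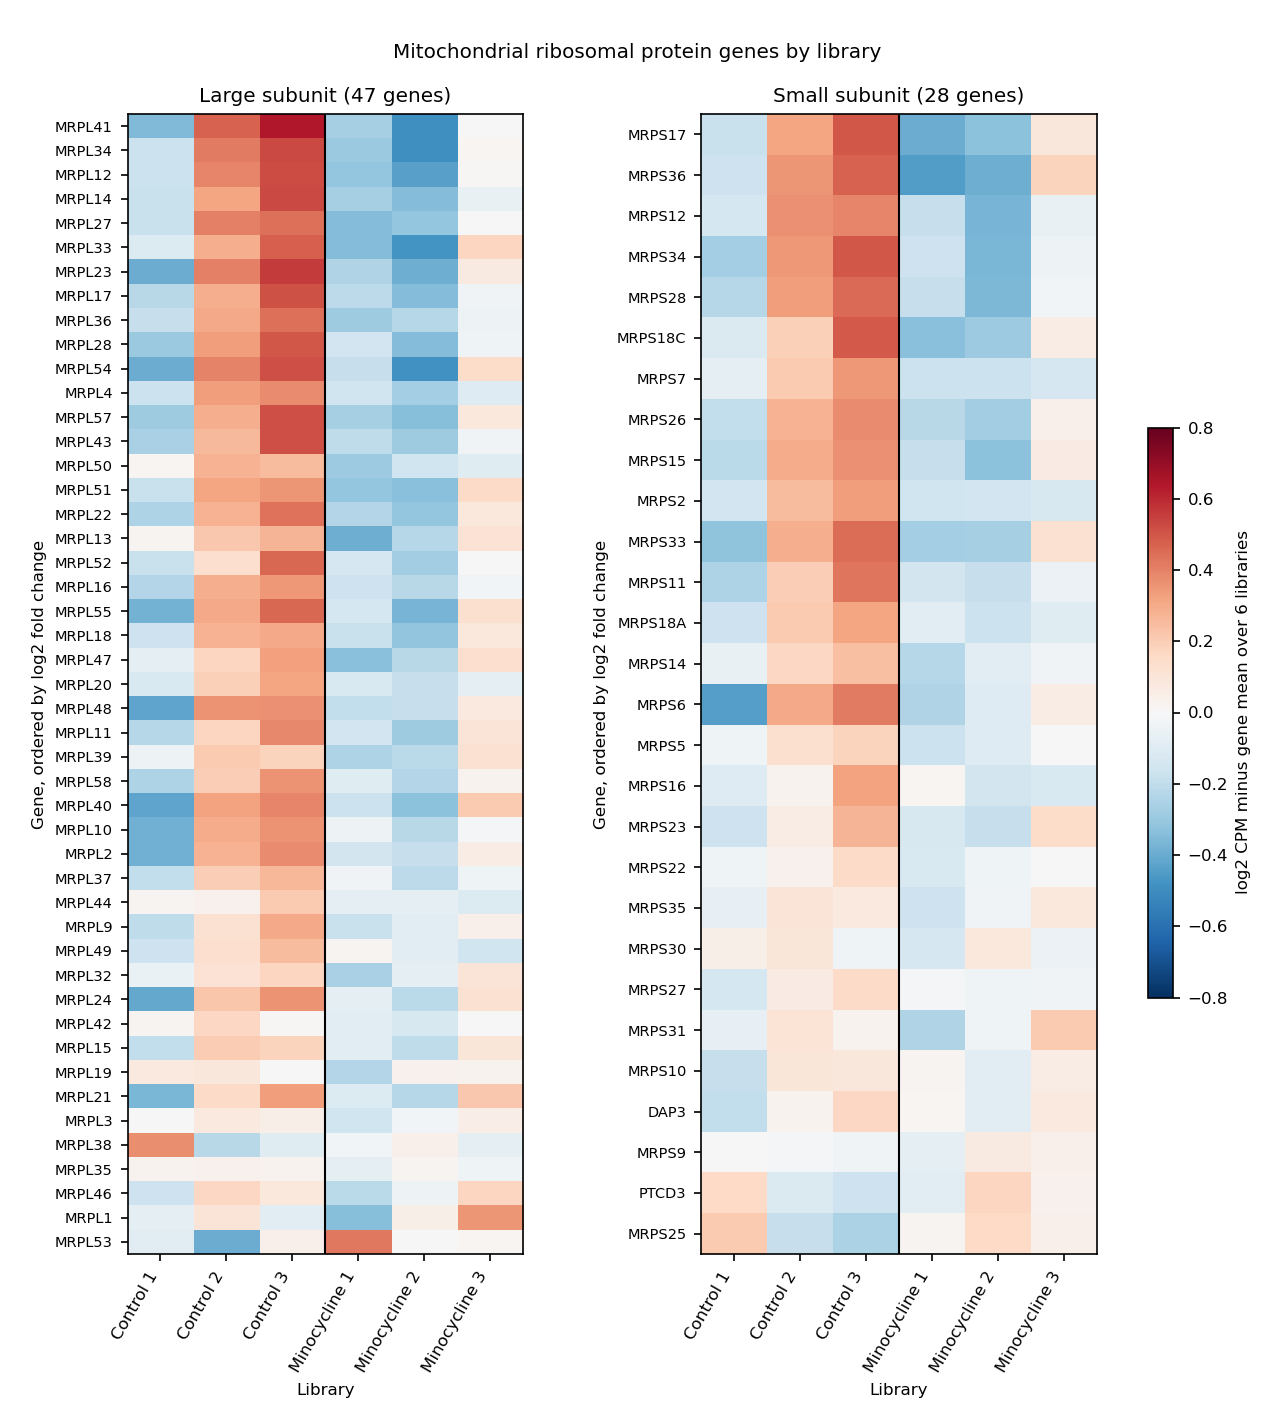
Log2 CPM of each of the 75 tested genes (rows, ordered by fold change within each subunit) in each library (columns), with the gene's mean over the 6 libraries subtracted; red is above and blue below that mean. Control replicates 2 and 3 are red in most rows, while control replicate 1 is blue beside minocycline replicates 1 and 2.

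The order of the libraries was much the same from gene to gene. Control replicates 2 and 3 were the highest of the 6 libraries in 59 of the 75 members (23.7% of all genes), and control replicate 1 lay below both of them in 66 (43% of all genes). Control replicate 1 also lay below the mean of the minocycline libraries in 46 members (50.8% of all genes). The median deviation of the members from their own mean was -0.17, 0.21 and 0.34 on the log2 scale in the controls and -0.17, -0.22 and 0.03 with minocycline, each in the order of the replicate numbers. The median range among the 3 controls was 0.53 on the log2 scale and that among the 3 minocycline libraries 0.30, against a median size of the fold change of 0.26. In 69 of the 75 members the control libraries alone spanned more than the fold change between groups. A range over 3 libraries is readily wider than a difference of group means, and the share over all genes was not computed. That count is therefore a description and sets the members apart from no other genes.

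Without control replicate 1 the picture changed for many genes of the table. In that fit, 40 of the 75 members were called, all lower (53.3%; 8.34% of the 17658 genes tested were called lower and 17.9% in either direction), 26 of the large and 14 of the small subunit, and the members' median was -0.41. In none of the other fits run was any member called. The control group then held 2 libraries, the pair with the highest member levels.

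Replicate numbers are also the batch labels, and the difference between treatments was not the same in each batch. In batch 1, 37 of 75 members were lower with minocycline (49.3%; 46.8% of all genes) and the median difference was 0.00 on the log2 scale. In batch 2, 70 were lower (93.3%; 48.5% of all genes), with a median of -0.42, and in batch 3, 65 (86.7%; 48.8%), with a median of -0.31. Each batch holds 1 library of each group, so these differences have no replicate.

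Among large-subunit genes the lowest fitted fold changes belonged to MRPL41, MRPL34, MRPL12 and MRPL14. MRPL41 encodes a mitochondria-specific subunit and lies on chromosome 9 at 140446331 to 140447007 (GRCh37, plus strand). Its level was 78.7, 139 and 156 CPM in the controls and 83.5, 71.6 and 100.2 CPM with minocycline (here and below in the order of replicates 1, 2 and 3), a log2 fold change of -0.55 ± 0.24 (SE; edgeR adjusted p = 0.820). Control replicate 1 lay among the minocycline libraries, and the other controls lay above all of them.

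MRPL34, a counterpart of a bacterial large-subunit protein (chromosome 19, 17403418 to 17417652), was at 59.8, 89.8 and 97.0 CPM in the controls and 54.6, 47.8 and 68.1 CPM with minocycline, a log2 fold change of -0.53 ± 0.20. MRPL12 forms the flexible stalk that recruits translation factors (chromosome 17, 79670397 to 79674547). It was at 64.3, 94.9 and 103.8 CPM in the controls and 58.3, 53.4 and 73.0 CPM with minocycline, a log2 fold change of -0.51 ± 0.20. Its exons share 69.5% of their bases with another annotated gene on the same strand, which had 0 counts in all 6 libraries, and how the counting divided such reads is not given, so its value is uncertain. In both genes minocycline replicate 3 alone lay above control replicate 1. MRPL14, another bacterial-type subunit (chromosome 6, 44081188 to 44095189), was at 126, 177 and 206 CPM in the controls and 119, 112 and 137 CPM with minocycline, with a log2 fold change of -0.47 ± 0.18, and the same library exceeded control replicate 1. Without control replicate 1 these 4 genes were called, with an edgeR adjusted p = 0.00245 for MRPL41, 0.00469 for MRPL34, 0.00484 for MRPL12 and 0.00449 for MRPL14.

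Groups that did not overlap were found for MRPL50, MRPL44, MRPL42, MRPL35 and MRPS7, which are named here because their count is small. MRPL50, a mitochondria-specific subunit (chromosome 9, 104149915 to 104160900), was at 27.1, 32.5 and 31.9 CPM in the controls and 21.9, 23.9 and 25.03 CPM with minocycline, a log2 fold change of -0.37 ± 0.14. Here control replicate 1 was the lowest control and still lay above every minocycline library. MRPS7, the counterpart of the bacterial protein that organises the head of the small subunit (chromosome 17, 73257755 to 73262457), was at 122, 149 and 164 CPM in the controls and 114.4, 114.5 and 117 CPM with minocycline, a log2 fold change of -0.33 ± 0.14. The minocycline libraries were close together and the controls were not. MRPL44, which carries a fold related to ribonuclease III, was at 41.0, 41.4 and 46.8 CPM against 38.2, 38.3 and 37.4 CPM, a log2 fold change of -0.18 ± 0.13. In MRPL42 the log2 fold change was -0.14 ± 0.12 and in MRPL35 -0.06 ± 0.12, so the separation of the groups was narrow. All 5 had an adjusted edgeR p of at least 0.820 with all libraries. Without control replicate 1, MRPS7 and MRPL50 were called (edgeR adjusted p = 0.0147 and 0.0332), while MRPL44, MRPL42 and MRPL35 were not (0.250, 0.359 and 0.771). Reads of MRPL44, MRPS7 and other genes with an antisense partner cannot be assigned to a strand, since strand use in counting is not given in the sources used here.

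The partners of MRPL12 in the stalk are MRPL10 and MRPL11. MRPL10, which anchors the stalk, was at 70.2, 113 and 118 CPM in the controls and 89.1, 78.7 and 91.3 CPM with minocycline (log2 fold change -0.21 ± 0.19), and MRPL11, at the stalk's base, had -0.23 ± 0.18. Control replicate 1 lay below all 3 minocycline libraries in MRPL10 and below minocycline replicates 1 and 3 in MRPL11. Around the exit of the nascent chain, 6 of 6 tested genes had a fitted value below 0 with a median of -0.30, and 0 were called. MRPL23 there ran from 177 to 345 CPM in the controls and from 178 to 245 CPM with minocycline (log2 fold change -0.42 ± 0.24).

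MRPL3 and MRPL2 encode proteins near the site of peptide bond formation. MRPL3 was at 154, 162 and 159 CPM in the controls and 138, 151 and 159 CPM with minocycline (log2 fold change -0.08 ± 0.12), with control replicate 1 close to its group. MRPL2 had -0.21 ± 0.19 and showed the common order, with 74.0 CPM in control replicate 1 against 117 and 126 CPM in the other controls. MRPL58, a peptidyl-tRNA hydrolase that frees stalled ribosomes, had -0.22 ± 0.18. The 5 genes of the central protuberance, where the subunits meet, had a median of -0.22, and 0 of them were called.

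At the other end of the large subunit stood MRPL53, MRPL1 and MRPL46. MRPL53 was at 7.34, 5.91 and 8.04 CPM in the controls and 10.5, 7.83 and 7.89 CPM with minocycline, a log2 fold change of 0.30 ± 0.20 (edgeR adjusted p = 0.820), and the highest library was minocycline replicate 1. Its exons share 72.8% of their bases with CCDC142 on the same strand, so its reads could be split between them and its value is uncertain. MRPL1, of the stalk beside the exit site for transfer RNA, was at 13.5, 15.3 and 13.4 CPM in the controls and 11.2, 14.7 and 18.2 CPM with minocycline, a log2 fold change of 0.06 ± 0.20, with the minocycline libraries spread around the controls. MRPL46 had a log2 fold change of -0.06 ± 0.17 with overlapping groups.

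In the small subunit the lowest fitted values were those of MRPS17, MRPS36, MRPS12 and MRPS34. MRPS12, the counterpart of the bacterial protein at the decoding site (chromosome 19, 39421584 to 39423808), was at 46.7, 66.3 and 67.3 CPM in the controls and 45.3, 39.6 and 49.4 CPM with minocycline, a log2 fold change of -0.42 ± 0.17. Minocycline replicate 3 alone lay above control replicate 1. MRPS34, a mitochondria-specific subunit needed for stability of the small subunit (chromosome 16, 1821891 to 1823151), was at 185, 285 and 316 CPM in the controls and 199, 173 and 217 CPM with minocycline, a log2 fold change of -0.41 ± 0.20, and minocycline replicates 1 and 3 exceeded control replicate 1. MRPS17 had -0.44 ± 0.22 and MRPS36 -0.44 ± 0.23. The product of MRPS36 is now assigned to the 2-oxoglutarate dehydrogenase complex and not to the ribosome, and its symbol alone places it here.

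Of the other genes taken for the decoding side and the head, MRPS7, described above, had -0.33 ± 0.14, while MRPS5 and MRPS14 lay closer to 0. MRPS5 was at 98.7, 110 and 114 CPM in the controls and 89.6, 94.1 and 101 CPM with minocycline (log2 fold change -0.18 ± 0.12), and MRPS14 had -0.23 ± 0.14. In each of them a single minocycline library lay above control replicate 1. Of the 3 paralogues of bacterial S18, MRPS18C had -0.39 ± 0.19 and MRPS18A, which sits in the large subunit by structure, -0.26 ± 0.16, while MRPS18B had 0 counts.

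The next members are DAP3, PTCD3, MRPS27, MRPS25, MRPS9 and MRPS30, with fitted values near 0 or above it. DAP3, a GTP-binding protein of the small subunit that was first described in cell death, was at 90.8, 106 and 117 CPM in the controls and 105, 98.1 and 109.9 CPM with minocycline, a log2 fold change of -0.0029 ± 0.13, with the groups interleaved. PTCD3 and MRPS27 are pentatricopeptide-repeat proteins, a family that binds RNA. PTCD3 was at 94.3, 77.8 and 75.1 CPM in the controls and 79.4, 94.8 and 86.2 CPM with minocycline (log2 fold change 0.07 ± 0.14), so that here control replicate 1 was high with minocycline replicate 2. MRPS27 had -0.06 ± 0.12, with control replicates 2 and 3 the highest of its 6 libraries. MRPS25 was also high in control replicate 1 and minocycline replicate 2, at 143, 109 and 104 CPM in the controls and 126, 138 and 127.5 CPM with minocycline, and the highest fitted value of the small subunit, 0.14 ± 0.15. Its annotated exons overlap those of NR2C2 on the opposite strand over 7157 bases. NR2C2 had 368, 171 and 142 counts in the controls and 313, 338 and 177 counts with minocycline. MRPS25 had 2632, 1824 and 1720 counts in the controls and 2300, 2545 and 2231 with minocycline, the same order at higher counts. Whether the pair shares reads was not tested, since strand use in counting is not given. MRPS9 was nearly level, at 37.5, 37.0 and 36.8 CPM against 35.7, 39.4 and 38.6 CPM (log2 fold change 0.03 ± 0.13). MRPS30, a large-subunit protein by structure despite its symbol, had -0.07 ± 0.12.

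**Figure D2:**
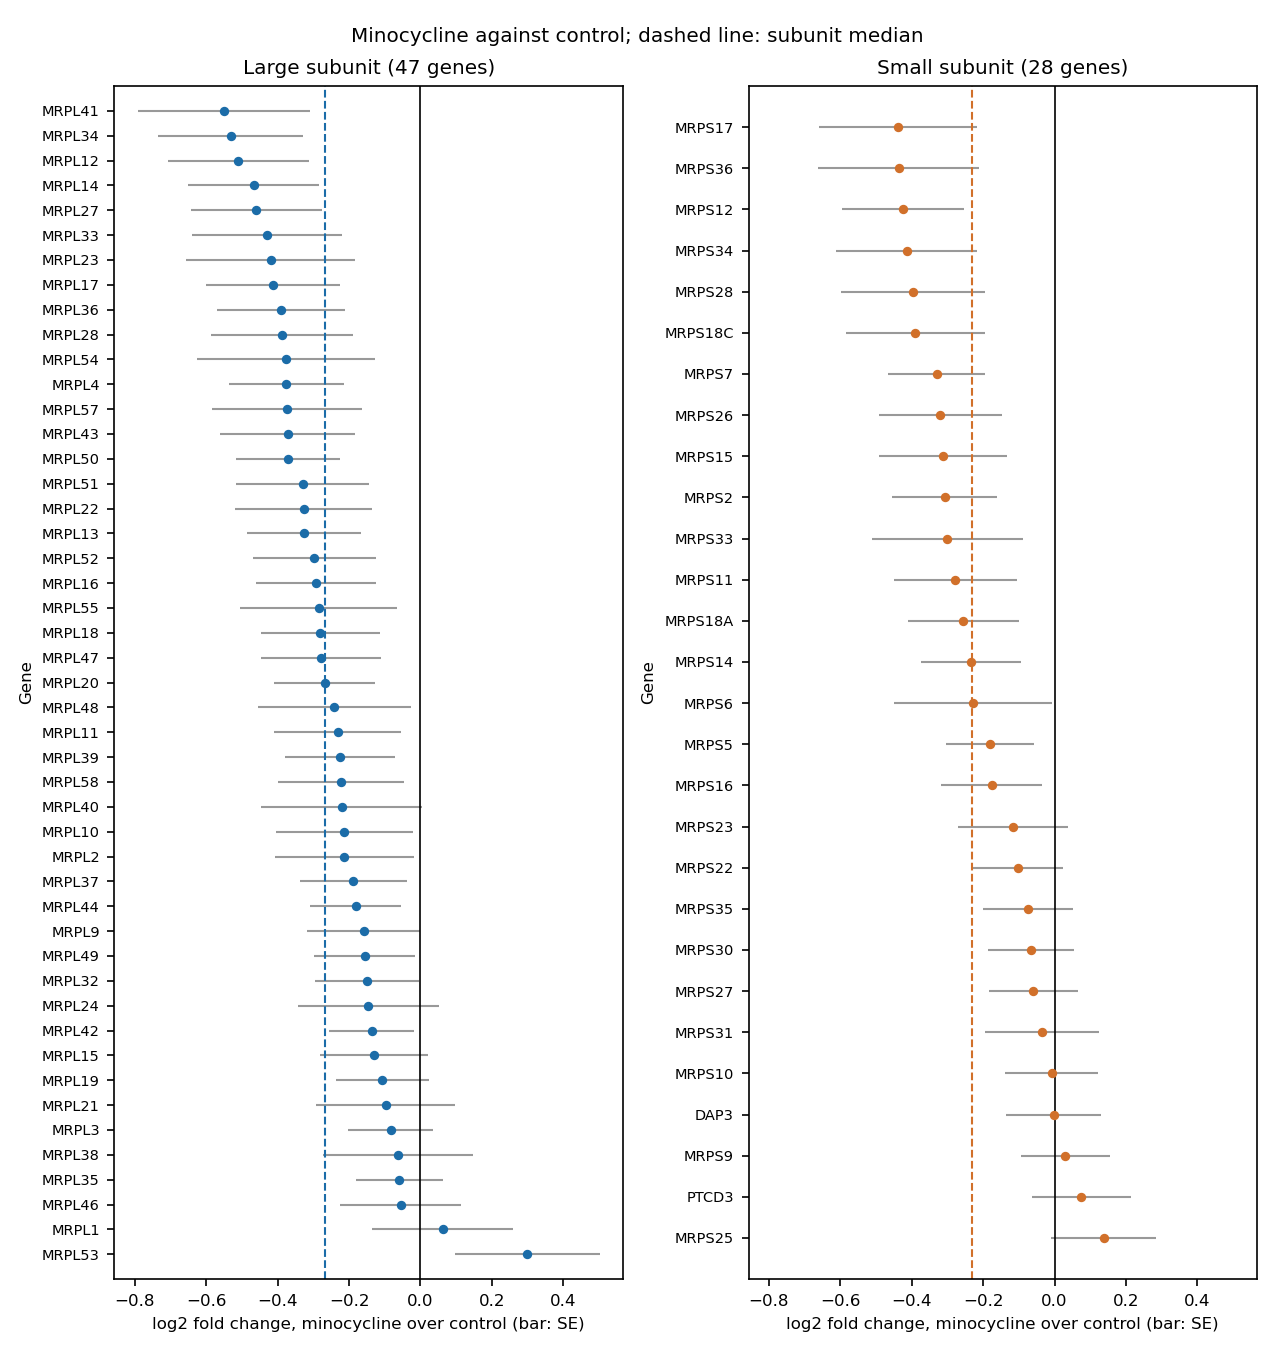
Fitted log2 fold change of minocycline over control for each tested gene, with its standard error as a bar, in the large (left) and small (right) subunit; the dashed line is the subunit's median, -0.27 and -0.23. Values run from -0.55 for MRPL41 to 0.30 for MRPL53, and no gene passed the adjusted threshold.

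The subunits differed little from each other. The median log2 fold change was -0.27 over the 47 large-subunit genes, of which 45 were below 0, and -0.23 over the 28 small-subunit genes, of which 25 were. The difference of the medians, -0.04, was smaller than its SD of 0.05 between replicates. With MRPS18A and MRPS30 moved to the large subunit, MRPS36 left out, and AURKAIP1, CHCHD1 and GADD45GIP1 added where structures place them, the medians were -0.26 (50 genes) and -0.23 (27 genes). Genes with a bacterial counterpart had a median of -0.28 in the large (29 genes) and -0.29 in the small subunit (14 genes). Mitochondria-specific genes had -0.22 in the large (18 genes) and -0.07 in the small subunit (13 genes). The latter include DAP3, PTCD3, MRPS25 and MRPS27, and also MRPS18A and MRPS30, which structures place in the large subunit. These 13 genes had a median canonical transcript of 1829 bases, against 1092.5 to 1504 in the large-subunit and bacterial-type lists. Their median GC content was 42.5%, against 45.15% to 50.15%. Fold changes moved with both properties, as given below, and their part in this difference was not tested. The 3 subunit proteins whose symbols fall outside the naming had -0.43 ± 0.19 for AURKAIP1, -0.35 ± 0.20 for GADD45GIP1 and -0.29 ± 0.18 for CHCHD1, and 0 were called.

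Summed levels showed the same spread between libraries. The members summed to 5099, 6719 and 7227 CPM in the controls and to 5151, 4964 and 5829 CPM with minocycline, or 6348 ± 1111 against 5315 ± 455 CPM (mean ± SD, n = 3 per group). Control replicate 1 sat between minocycline replicates 1 and 2, and the groups overlapped. The large subunit summed to 3162, 4384 and 4729 CPM in the controls and 3228, 3057 and 3733 CPM with minocycline, and the small subunit to 1937, 2335 and 2498 CPM and to 1923, 1908 and 2097 CPM. The ratio of large to small was 1.63, 1.88 and 1.89 in the controls and 1.68, 1.602 and 1.78 with minocycline (1.80 ± 0.146 against 1.69 ± 0.0893), so the ratio was low in the libraries in which the sums were low, in both groups.

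Cytosolic ribosomal protein genes had the same order of libraries. They summed to 72536, 115820 and 133610 CPM in the controls and to 82189, 71843 and 107920 CPM with minocycline, and their median log2 fold change was -0.30, with 83 of 85 tested genes below 0 and 0 called. Per 1000 CPM of cytosolic ribosomal protein transcripts, the mitochondrial ones amounted to 70.3, 58.0 and 54.1 CPM in the controls and 62.7, 69.1 and 54.0 CPM with minocycline. The group means of that quantity, 60.8 ± 8.45 and 61.9 ± 7.57, differed by less than their spread.

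**Figure D3:**
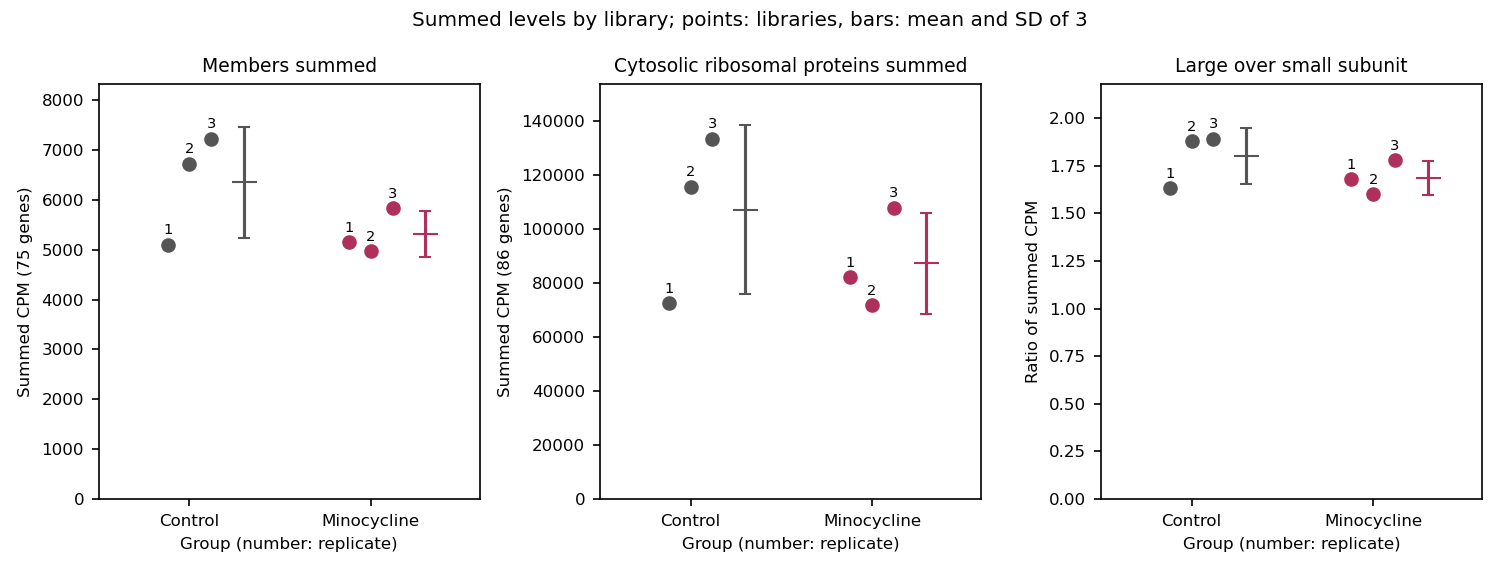
Summed CPM of the 75 tested mitochondrial ribosomal protein genes (left), summed CPM of 86 cytosolic ribosomal protein genes (middle) and the ratio of summed large-subunit to summed small-subunit CPM (right) in each library, with replicate numbers beside the points and mean and SD of 3 libraries as bars. In each panel control replicate 1 lies within the range of the minocycline libraries, below control replicates 2 and 3.

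Fold changes moved with the length and base composition of the transcripts. Across the 75 genes, which are not independent replicates and share the same 6 libraries, the log2 fold change had Spearman's rho = 0.389 (Pearson's r = 0.339) with the log2 length of the canonical transcript and rho = -0.390 (r = -0.363) with the GC content of the annotated exons. The median was -0.33, -0.26 and -0.16 in the 25 shortest, the 25 middle and the 25 longest members, and -0.11, -0.28 and -0.32 in the 25 with the lowest, the 25 with middle and the 25 with the highest GC content. All genes tested had rho = 0.278 with length and -0.281 with GC. The difference of control replicate 1 from the other controls, which involves no treatment, had rho = 0.440 with length and -0.556 with GC across the members. It uses the same control libraries as the fold change, so these correlations are not independent of those above. With a correction for length and GC content per library, the median over the members was -0.25, with 72 of 75 below 0 and 0 called. With 1 surrogate variable as an added term, a choice made after the data were seen, it was -0.08, with 55 below 0 and 0 called.

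**Figure D4:**
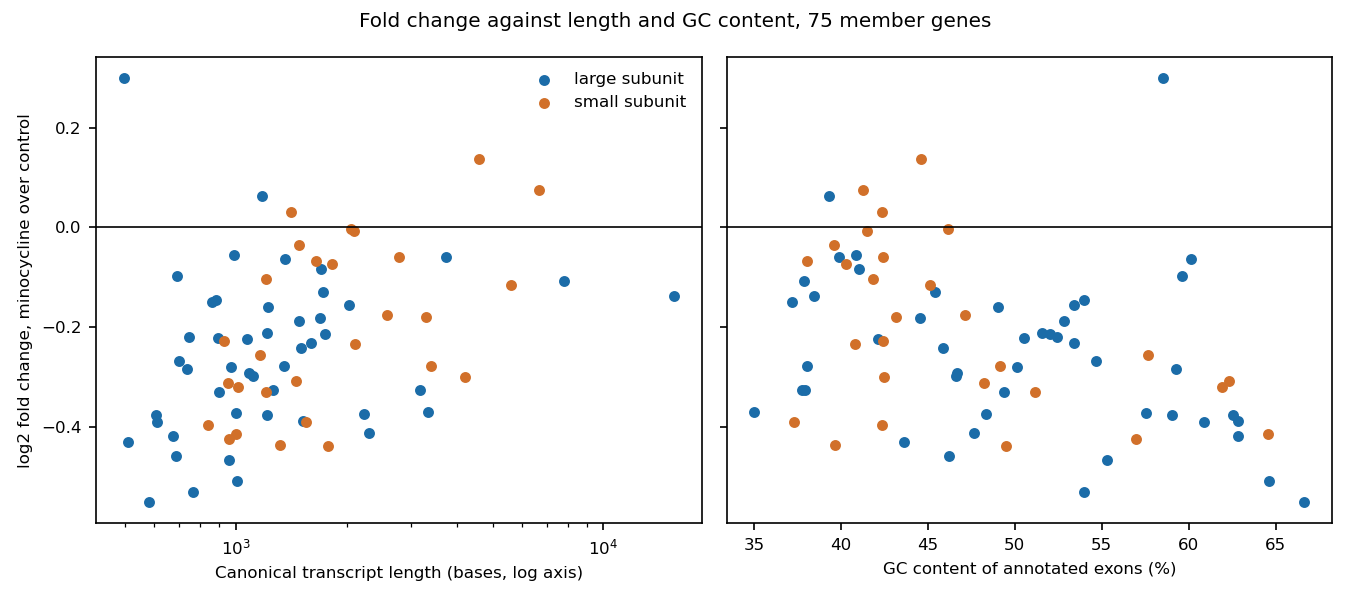
Fitted log2 fold change of each of the 75 tested genes against the length of its canonical transcript in bases (left, log axis) and the GC content of its annotated exons in percent (right); blue points are large-subunit and orange points small-subunit genes. Shorter and GC-richer genes tend to lie lower, with Spearman's rho of 0.389 and -0.390, and MRPL53 stands alone at the top of both panels.

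Levels between genes were compared as CPM per kilobase of annotated exons in the control libraries. MRPS34 was highest at 239.8 ± 62.4 (mean ± SD, n = 3), followed by MRPL41 at 214.3 ± 70.1 and MRPL14 at 177.5 ± 42.5, and these neighbours did not differ beyond their spread. Among tested genes the lowest levels were those of MRPS22 at 2.73 ± 0.179, MRPL46 at 2.72 ± 0.323 and MRPL38 at 1.93 ± 0.444, and MRPL38 shares 41.1% of its exon bases with a readthrough gene on the same strand, so its value is uncertain. The order depends on which exons are counted. Per kilobase of the canonical transcript, a length chosen after the data were seen, MRPL23 was highest at 411.5 ± 131.3, MRPS34 followed at 262.4 ± 68.3, and MRPS22 and MRPL46 moved to 37.1 ± 2.44 and 17.7 ± 2.10, since their annotated exons extend far beyond that transcript. The median level of a large-subunit gene was 2.15 ± 0.257 times that of a small-subunit gene per kilobase of exons (mean ± SD over the 3 controls), and 1.90 ± 0.350 times per kilobase of the canonical transcript.

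The 3 genes that did not pass the filter were close to or at 0 in every library. MRPS18B (chromosome 6, 30585617 to 30594172) had 0 counts in all 6. If no reads were lost in counting, that allows a level of up to 0.168 to 0.173 CPM of the library total (3 counts). Of the 31 protein-coding neighbours within 500 kb, 23 had at most 10 counts in all libraries together, compared with 20.8% of 19404 protein-coding genes, so the low counts extend over that stretch. Whether reads were lost there was not tested, so the 0 counts of MRPS18B may not be a low transcript level. MRPL30 had 1 count in control replicate 1 and 0 in the other 5 libraries. MRPS24 had 6, 11 and 8 counts in the controls and 7, 10 and 2 with minocycline. Exons of MRPL30 and MRPS24 overlap readthrough genes on the same strand, over 11.8% and 23.2% of their bases. Whether this overlap cost them reads was not tested, and a low count here may not be a low transcript level. The 73 pseudogene rows of the family held 40 to 76 counts per library, 0.0335% to 0.0810% of the members' counts. How reads that fit both a member and a pseudogene were counted is not given. Whether such reads are among the members' counts was therefore not tested.

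Some other transcripts followed the members closely. The profile of the family, the median over members of the standardised log2 CPM, had a correlation above 0.9 over the 6 libraries with 49 of the 75 members (65.3%) and with 11.9% of all genes tested. Members helped define that profile, so their share is a description. The most negative values were those of MRPS25 (r = -0.93) and PTCD3 (r = -0.77). The 5 genes outside the family with the highest correlation were SF3B5 (r = 0.9994), CRABP2 (0.9986), PFDN2, RPS26 and CIAO2B (0.9984 each). SF3B5, a splicing factor subunit, was at 106, 159 and 177 CPM in the controls and 106, 103 and 131 CPM with minocycline, the order seen in the members.

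Genes that assemble or serve the mitochondrial ribosome had medians nearer to 0. Of the 28 assembly factors tested, of 30 listed, 18 had a fitted value below 0, where 47.9% of all genes did, the median log2 fold change was -0.05 and 0 were called. With scaling by library size alone, 12 were below 0 and the median was 0.03. MALSU1, which keeps immature large subunits from joining, had -0.39 ± 0.18, TRUB2, a pseudouridine synthase, -0.34 ± 0.16, and ERAL1, which binds the small-subunit RNA, -0.26 ± 0.15, while MTG1, a GTPase that acts on the large subunit, had 0.31 ± 0.22. Of the 18 translation factors tested, 12 were below 0, with a median of -0.08 and 0 called, and with library size alone 10 were. The elongation factors TUFM and GFM1 had -0.17 ± 0.16 and 0.31 ± 0.18, and LRPPRC, which stabilises mitochondrial messenger RNAs, had 0.24 ± 0.20. Without control replicate 1, 7 of the 28 assembly factors and 4 of the 18 translation factors were called in either direction, where 17.9% of all genes were, and the medians were -0.11 and -0.06. The difference between these lists and the ribosomal proteins was not tested.

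The ribosomal RNAs that the members bind are encoded in mitochondrial DNA. MT-RNR1, of the small subunit, was at 266.5 ± 45.1 CPM in the controls and 238 ± 56.4 CPM with minocycline (log2 fold change -0.16 ± 0.19), and MT-RNR2, of the large subunit, at 1623 ± 161 and 1483 ± 296 CPM (-0.13 ± 0.18, n = 3 per group). Neither passed the edgeR threshold, with adjusted p = 0.853 and 0.874.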

How the data were processed

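Total RNA of HEK293 cells was sequenced as 6 paired-end libraries. The authors deposited whole-number counts per gene, not normalized, with replicates in separate columns. The build was hg19, per the submitters' processing notes. RNA selection, strandedness, aligner, counter and annotation are not given in the sources used here. Groups came from the treatment label, and the series' design text calls the libraries of a group biological replicates.

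Identifiers were matched without their version to GENCODE genes mapped to GRCh37, whose nuclear coordinates are those of hg19, and 55538 of 57820 matched. The members and lists were chosen with earlier results of these data known. Genes were filtered with filterByExpr, scaled with TMM factors and tested with edgeR 4.0.16 (glmQLFit and glmQLFTest, R 4.3.3), with treatment as the single term and a Benjamini-Hochberg adjusted p under 0.05 over all 17225 genes. SE is the fold change divided by the square root of F. The fit was tested on simulated counts, where 7.46% of 1.5-fold, 57.6% of 2-fold and 98.4% of 4-fold changes were called. Of the calls there, 6.25% were false. A lack of calls therefore says little about changes of 1.5-fold or less, and many 2-fold changes were also missed there. The simulated counts were drawn for each gene separately, without the gradient between libraries seen in the data. These shares may therefore not hold for the data. The libraries held 17303180 to 17835756 counts, so precision is set by the spread between libraries for all but the lowest genes.

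The batch label equals the replicate number, so same-numbered libraries share a batch. Their deviations from the group means correlated across genes by -0.05, -0.29 and 0.30 in batches 1, 2 and 3. Between libraries of different numbers the values ran from -0.425 to 0.5. These ends were control replicates 3 and 1, each with minocycline replicate 2, so the batch labels did not follow the strongest likeness. Chi-square tests of counts between libraries of 1 group gave 5.80 to 63.6 per degree of freedom, far above sampling noise, so none repeated another.

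Named members were the 4 lowest and 3 highest fold changes of each subunit, the 3 highest and 3 lowest levels per length, those failing the filter, and a set taken for its role. Other named genes were chosen after their values were seen. Alternatives were DESeq2 1.42.0, limma-voom 3.58.1, scaling by RLE factors, upper quartiles or library size alone, no filter, at least 10 counts in every library, the replicate block, a correction by splines of length and GC content (4 degrees of freedom per library) with and without the block, mitochondrially encoded genes left out, subunits placed by structure, and each library left out. Added after seeing the data were 1 surrogate variable (sva 3.50.0) and canonical transcript length.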

Additional observations from a re-analysis of the deposited data

How the results depend on the processing

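The precision was limited by 3 libraries per group and by the gradient between libraries that crosses the groups, more than by counting error. In every alternative that kept all libraries, 0 members were called and the members' median stayed between -0.26 and -0.08. All genes called numbered 50 with DESeq2, 94 with no filter on low counts, 26 with the length and GC correction, 35 with that correction and the replicate block, and 91 with 1 surrogate variable, against 9. The replicate block alone called 13 genes and 0 members, with a median of -0.23 over the members, and changed no call of a member. Leaving out each library in turn gave 1 to 3154 genes called, 0 to 40 members called, and medians of -0.41 to -0.14 over all members, -0.42 to -0.17 for the large and -0.35 to -0.13 for the small subunit. The large minus small difference then ran from -0.08 to 0.0294. With library size alone, which moved the median of all genes to 0.08, the members' median was -0.16 and 61 were below 0.

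Of 558 pairs of a named member and an alternative, 513 kept direction and side of the threshold, 14 became calls, all without control replicate 1, and 31, in 11 members, changed sign. With library size alone, DAP3 was at 0.0751, MRPL38 at 6e-04, MRPL46 at 0.0206, MRPS27 at 0.0178 and MRPS30 at 0.0048. DAP3 was at 0.0040 with limma-voom, 0.0038 with at least 10 counts and 0.0031 with the block. With the length and GC correction, MRPL1 was at -0.0017, MRPL38 at 0.0046, MRPS25 at -0.0058, MRPS9 at -0.0038 and PTCD3 at -0.0671, and with the block added at -0.0073, 0.044, -0.0070, -0.0058 and -0.0668. With 1 surrogate variable, DAP3 was at 0.1175, MRPL10 at 0.0623, MRPL2 at 0.0671, MRPL46 at 0.0545, MRPS27 at 0.0261 and PTCD3 at -0.0298. Over the fits without 1 library, DAP3 ran from -0.0961 to 0.0764, MRPL1 from -0.13 to 0.22, MRPL38 from -0.18 to 0.14 and MRPL46 from -0.1713 to 0.034. The cause was not tested.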

Other observations

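Some members start beside a gene of the opposite strand. Counted were pairs that ran apart from starts at most 1000 bases from each other. Pairs whose starts overlapped were left out. Such a protein-coding partner was found for 17 of the 75 tested members (22.7%) and for 10.7% of the 13672 tested protein-coding genes, a share given as a description. Of the 16 partners tested, 8 had a fitted log2 fold change below 0, their median was -0.01, and 0 were called, while the members with such a partner had a median of -0.28 and those without -0.23. MRPS12 at -0.42 starts 181 bases from SARS2, the mitochondrial seryl-tRNA synthetase, at 0.39 ± 0.26. MRPL36 at -0.39 starts 41 bases from NDUFS6, a subunit of respiratory complex I, at -0.31. MRPL46 and MRPS11 are each other's partner, with starts 63 bases apart.

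Fold changes were also set beside the promoter letters. The median log2 fold change was -0.26 in the 24 tested members with the ETS letters and -0.23 in the 42 without, and -0.26 in the 18 with the YY1 letters and -0.24 in the 48 without. For the NRF1 core it was -0.38 in 6 and -0.23 in 60. These medians are descriptions over genes that share the same 6 libraries.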
